A study of Mus musculus with 4 samples.

Results

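Loss of p53 was set against loss of its cofactor Aspp1 in LSK cells, the lineage(-) Sca-1(+) cKit(+) fraction of bone marrow in which blood stem cells and multipotent progenitors are found. The comparison used 2 of the 4 arrays of the series, the p53-/- array and the Aspp1-/- array, and every difference below is the log2 level on the p53-/- array minus that on the Aspp1-/- array. A probe entered when the scanner called it well above background on both arrays, which held for 27307 of 55675 probes. These probes measured 13672 of 22221 RefSeq genes, and 19514 of 34826 genes and other transcripts.

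All mice were 12-week-old C57BL/6 males, and all had received the double-stranded RNA analogue pIpC 5 times from 8 weeks of age, 4 weeks before the cells were taken. Aspp1-/- mice were knockouts whose label names no Cre. The p53-/- cells came from Mx1-Cre(+)p53flox/flox mice, in which Cre stands under the interferon-responsive Mx1 promoter and pIpC induces the deletion. The other arrays held wild-type (WT) cells and Aspp1-/-p53-/- cells from Mx1-Cre(+)Aspp1-/-p53flox/flox mice, and their values are given beside the comparison. The pIpC dose was 400 μg in the series design, while the labels of the individual samples read 400 μg for WT, 401 μg for Aspp1-/-, 402 μg for p53-/- and 403 μg for Aspp1-/-p53-/-. Each array took 1 RNA pool made from 3 mice, so no difference here has a replicate, a spread or a test, and only sizes are reported. The p53-/- array lay in slide row 2 and the Aspp1-/- array in row 1. Genotype, Mx1-Cre and slide row therefore cannot be told apart in this comparison.

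p53, encoded by Trp53, is a transcription factor that answers DNA damage and other stress by switching on genes of growth arrest, apoptosis and metabolism, and one target, Mdm2, feeds back to degrade it. ASPP1, encoded by Ppp1r13b, belongs to a family of p53-binding proteins that steer p53 towards apoptotic targets, while the family member iASPP, encoded by Ppp1r13l, opposes this. In blood stem cells p53 is known for roles in quiescence and in the removal of damaged cells.

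Processed signals ran on a linear intensity scale and levels were log2 signals less the 75th percentile of the array, which was a signal of 523 on the Aspp1-/- array and 512 on the p53-/- array. Probes called well above background made up 52.9% of the total on the Aspp1-/- array and 51.2% on the p53-/- array, and no spot was saturated on any array. The scanner's own error model gave an error of about 0.20 on the log2 difference of a bright gene such as Ppp1r13b and of 0.35 for a dim one such as Xcl1. This error is technical and says nothing of the spread between mice. Both sorting markers were bright: Kit, which encodes the cKit receptor, read 18178 on the Aspp1-/- array and 18124 on the p53-/- array, and Ly6a, which encodes Sca-1, read 3355 and 3999. Pax5 of B cells and Cd3d and Cd8a of T cells were well above background on no array. Other lymphoid genes were detected: 14 of 17 listed B lineage genes and 8 of 14 listed T lineage genes were measured on both arrays.

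Among RefSeq genes at least as bright as Trp53, each read by its brightest probe, the targeted genes gave the largest differences. Some transcripts of that brightness without a RefSeq gene name differed more, down to −3.07 in the heavy chain stretch described below. The Trp53 probe (chr11:69404204-69404263, plus strand, mm9) read 730 on the WT array, 820 on the Aspp1-/- array, 164 on the p53-/- array and 169 on the Aspp1-/-p53-/- array, a log2 difference of −2.29 with a scanner error of 0.21. The Ppp1r13b probe (chr12:113066670-113066729, minus strand, mm9) read 13182, 2247, 12759 and 2060 on the same arrays, a log2 difference of 2.54 with an error of 0.20. Each targeted gene was thus low on both arrays that lacked it and high on both others. The sources used here do not say which exons were deleted or which exon each probe reads. The relatives lay within the scanner error: Ppp1r13l at −0.19, Trp53bp2, which encodes ASPP2, at −0.17, Trp63 at −0.07 and Trp73 at 0.01.

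Over all RefSeq genes the 2 arrays were close. The median log2 difference was −0.01 with a standard deviation over genes of 0.229, and 45.5% of genes lay above 0 and 54.5% below. A 2-fold size rule, a log2 difference of at least 1, was met by 75 genes higher on the p53-/- array (0.549%) and 22 lower (0.161%). When arrays were scaled on their medians instead, 59 were higher and 33 lower, so that 64.1% of these genes were higher in place of 77.3%. That scaling moved the median of all RefSeq genes to −0.159, and small positive differences turn negative under it. Over all 19514 genes and other transcripts 268 met the rule in either direction (1.37%), 167 higher (0.856%) and 101 lower (0.518%). At a log2 difference of 0.5 or more, 310 genes were higher (2.27%) and 180 lower (1.32%). The genes just inside the rule were 1700006J14Rik at 1.003 and Egr4 at −1.0, and those just outside were Zfp185 at 0.97 and Lmln at −0.98.

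**Figure D1:**
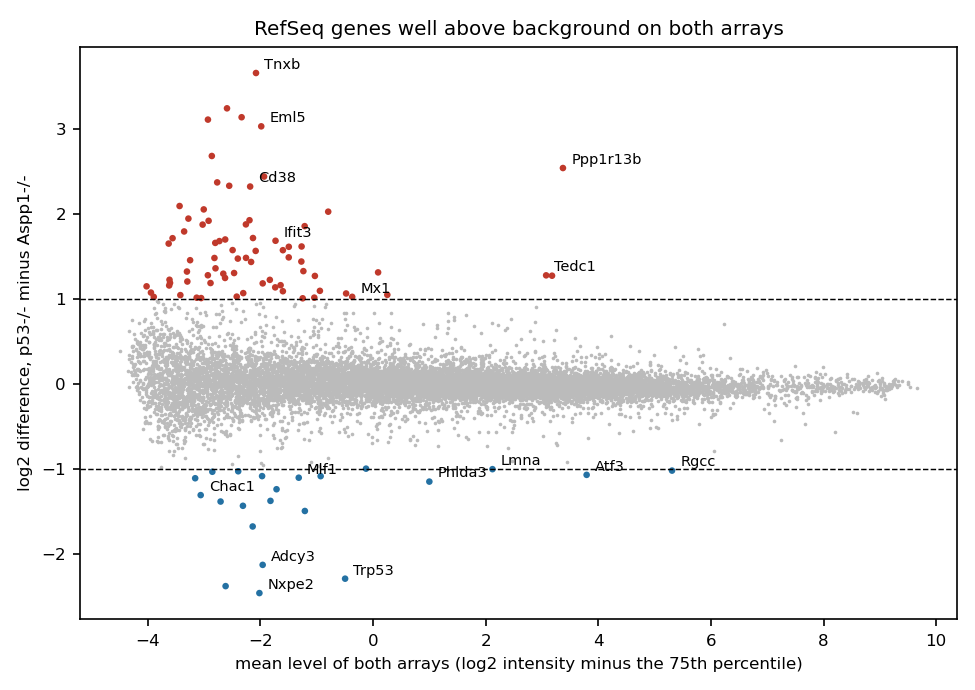
Each dot is 1 of 13672 RefSeq genes well above background on both arrays. The x axis gives its mean level on both arrays (log2 intensity less the 75th percentile) and the y axis the log2 difference, p53-/- minus Aspp1-/-, with dashed lines at the 2-fold rule. Most genes past the rule are dim, and Ppp1r13b at 2.54 and Trp53 at −2.29 stand out at their brightness.

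Most 2-fold genes were dim. Of 97, 81 were among the 3418 dimmest genes and 4 among the 3418 brightest, and the standard deviation of the difference was 0.376 in the dimmest set against 0.121 in the brightest. A further probe was measured for 17 of them, and all further probes pointed the same way in 12 (70.6%), against 57.4% of all 4088 genes with further probes. By direction, this held for 8 of 13 higher genes (61.5%) and 4 of 4 lower genes. For the 13417 genes detected on every array, the standard deviation was 0.209 between the p53-/- and Aspp1-/- arrays, 0.192 between Aspp1-/- and WT, and 0.223 between p53-/- and WT.

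p53 target genes were lower on the p53-/- array for some members, led by the Akt inhibitor Phlda3 and by apoptosis and arrest genes. Of 56 listed targets, 53 were measured, and 33 of these lay below 0, where 54.5% of all RefSeq genes did. Of the measured targets 9 were lower by 0.5 or more (1.32% of all RefSeq genes), 1 was higher by 0.5 or more (2.27%), and 1 was 2-fold lower (0.161%). The median over the targets was −0.05, against −0.01 over all RefSeq genes. Rprm, Eda2r and Pltp were not well above background on both arrays. Targets with a size under 0.5 that are named singly were picked after their values were seen.

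Phlda3, whose protein competes with Akt for membrane lipids, was the only target past the 2-fold rule. Its probe (chr1:137665642-137665701, mm9) read 1229 on the WT array, 1558 on the Aspp1-/- array, 686 on the p53-/- array and 538 on the Aspp1-/-p53-/- array, a difference of −1.15 with an error of 0.20. Both arrays without p53 lay below both arrays with it. Gdf15, a secreted factor of the TGF-β family, read 1261, 1828, 1181 and 1203, a difference of −0.60, and its Aspp1-/- array stood above the other 3.

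Among apoptosis targets, 12 of 17 lay below 0 (54.5% of all RefSeq genes) with a median of −0.04. Bbc3, which encodes the BH3-only killer Puma, read 4471 on the WT array, 3574 on Aspp1-/-, 2073 on p53-/- and 1870 on Aspp1-/-p53-/-, a difference of −0.76. Zmat3, an RNA-binding zinc finger protein, read 191, 208, 120 and 116, also −0.76. Both genes were low on the 2 arrays without p53 and high on the 2 with it. Pmaip1, which encodes the BH3-only protein Noxa, read 2232, 2100, 1312 and 526, a difference of −0.65. Its level on the double-deficient array was the lowest of the 4. Tnfrsf10b, a TRAIL death receptor, was at −0.42, Perp at −0.27 and Bax, the pore-forming effector, at −0.18. Apaf1, the scaffold of the apoptosome, at 0.06, and the death receptor Fas at 0.20 did not follow.

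Growth arrest targets had the lowest median of the 4 roles, −0.30, with 8 of 11 below 0 (54.5% of all RefSeq genes). Cdkn1a, which encodes the CDK inhibitor p21, read 2530 on the WT array, 2345 on Aspp1-/-, 1551 on p53-/- and 818 on Aspp1-/-p53-/-, a difference of −0.57. A second Cdkn1a probe gave −0.06, so the size rests on the brighter probe. Plk3, a stress-responsive polo-like kinase, was at −0.51, the antiproliferative Btg2 at −0.39, Ccng1 at −0.32 and Plk2 at −0.30. Gadd45a, a damage-induced partner of PCNA, was at 0.27.

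Feedback genes differed little apart from Mdm4. Mdm2, the ubiquitin ligase of p53, read 13188, 12795, 11440 and 9814 on the WT, Aspp1-/-, p53-/- and Aspp1-/-p53-/- arrays, a difference of −0.13 that is within the scanner error. Mdm4, an inhibitor that binds p53, was higher on the p53-/- array at 0.55, with 546, 399, 571 and 513, so that the Aspp1-/- array was the one that stood low. Its second probe gave 0.14. Targets of metabolism and repair had a median of −0.08 with 11 of 18 below 0 (54.5% of all RefSeq genes). Besides Phlda3 and Gdf15, Trp53inp2 of autophagy was at −0.60, the mTORC1 inhibitor Ddit4 at −0.52 and the thiamine transporter Slc19a2 at −0.47. The sestrins Sesn1 at 0.18 and Sesn2 at 0.06, and the repair genes Ddb2 at −0.05 and Xpc at 0.05, were within the error.

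**Figure D2:**
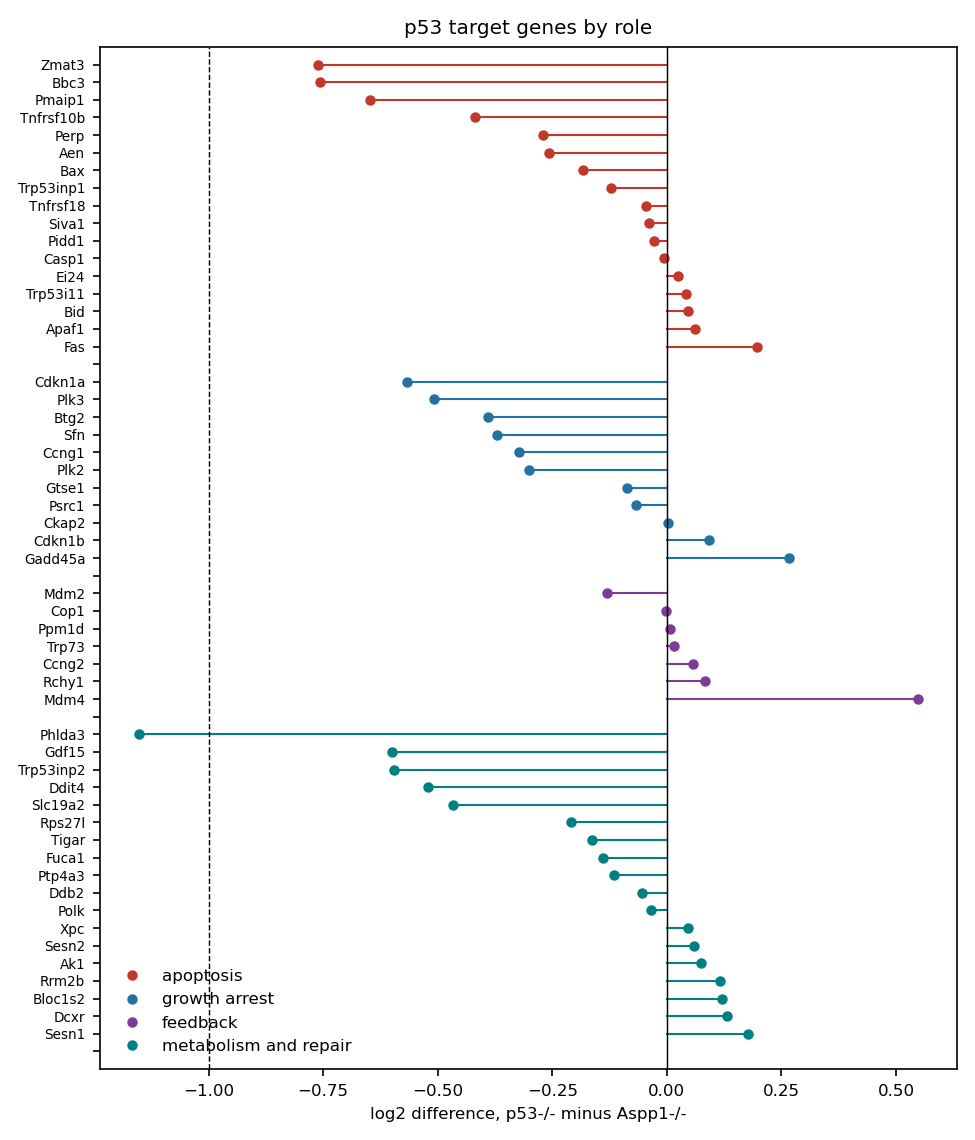
Each line ends at the log2 difference, p53-/- minus Aspp1-/-, of 1 of the 53 measured p53 targets, grouped and coloured by role, and the dashed line marks 2-fold lower. Phlda3 at −1.15 passes it, Zmat3 and Bbc3 follow at −0.76, and many targets lie near 0.

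The promoters of 3 targets are shown because their levels span the range from the lowered Cdkn1a to the little-differing Mdm2. The sequences are RefSeq's (GRCm38.p6), 5′ to 3′ on the strand of the gene, and capitals mark matches to the 10-base p53 element that is repeated in a full p53 site.
Cdkn1a, chr17:29090879-29090958: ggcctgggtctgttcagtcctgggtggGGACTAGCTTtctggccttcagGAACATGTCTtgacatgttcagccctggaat
Ccng1, chr11:40755427-40755506: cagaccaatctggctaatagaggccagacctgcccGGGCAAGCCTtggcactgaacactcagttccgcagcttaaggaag
Mdm2, chr10:117710899-117710978: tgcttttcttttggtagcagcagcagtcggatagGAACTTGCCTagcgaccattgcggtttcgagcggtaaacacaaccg
Cdkn1a lies on the plus strand and the others on the minus strand. A match within the 250 bases before the gene's start was found in 14 of 44 targets with a promoter in the table (31.8%), against 7.21% of the 10817 measured genes with one. Of the lists described below, it was also found in 7 of 35 interferon response genes (20%) and 1 of 34 early genes (2.94%). A letter match is a description and not a bound site.

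Interferon response genes were higher on the p53-/- array than on the Aspp1-/- array, led by Ifit3, Mx1 and Ifi27l2a. All 48 listed genes were measured, and 44 lay above 0, where 45.5% of all RefSeq genes did, with a median of 0.25. Of these 14 were higher by 0.5 or more (2.27% of all RefSeq genes) and 2 were 2-fold higher (0.549%). None was lower by 0.5. These genes carry out the antiviral program downstream of interferon receptors, where transcription factors bind the interferon-stimulated response element.

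Ifit3, which encodes an antiviral protein that binds RNA-sensing complexes, had a probe at chr19:34663105-34663164 (mm9). It read 117 on the WT array, 88 on Aspp1-/-, 276 on p53-/- and 165 on Aspp1-/-p53-/-, a difference of 1.68 with an error of 0.22. The near-identical copy Ifit3b, which shares sequence with it and was named after its value was seen, was at 1.22. Mx1, an antiviral GTPase whose promoter is the one that drives Cre here, read 357, 284, 564 and 497, a difference of 1.02 that was 0.87 under median scaling and 0.90 under normexp background correction. Mx2, its relative, read 554, 488, 849 and 762, a difference of 0.83. For each of these genes the Aspp1-/- array was the lowest of the 4 and both arrays with Mx1-Cre were above the WT array.

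Ifi27l2a, an interferon-induced mitochondrial protein, read 3687, 2826, 5188 and 4796 on the WT, Aspp1-/-, p53-/- and Aspp1-/-p53-/- arrays, a difference of 0.91. The other end of the list was near 0: Bst2, an antiviral membrane tether, was at −0.004, and Ifitm1 and Ifitm2, which block virus entry, were both at −0.11. These 3, and the next 4, were named after their values were seen. The regulator Irf7 was at 0.76, Usp18, which removes ISG15 and dampens the receptor, at 0.66, Oas2, a synthetase that activates RNase L, at 0.64, and Isg15 at 0.45. Against the WT array, the median of the list was 0.20 on the p53-/- array, 0.20 on the Aspp1-/-p53-/- array and −0.09 on the Aspp1-/- array. The 2 arrays with the higher medians share loss of p53, Mx1-Cre and slide row 2, and the part of each in the result was not tested.

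Upstream sequences of interferon genes are shown because part of the list holds a known element. Capitals mark the core of the interferon-stimulated response element, a pair of GAAA repeats with any 2 bases between them or the reverse complement, in RefSeq sequence (GRCm38.p6) read 5′ to 3′ on the gene's strand, with overlapping matches run together.
Ifit3, chr19:34583359-34583438: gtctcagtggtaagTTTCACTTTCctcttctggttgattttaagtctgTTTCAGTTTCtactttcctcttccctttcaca
Ifit1, chr19:34640769-34640848: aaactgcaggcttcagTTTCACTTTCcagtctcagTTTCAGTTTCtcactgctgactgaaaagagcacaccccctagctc
Isg15, chr4:156200839-156200918: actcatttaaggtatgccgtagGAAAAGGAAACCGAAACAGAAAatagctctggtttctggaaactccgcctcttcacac
Oas3, chr5:120777680-120777759: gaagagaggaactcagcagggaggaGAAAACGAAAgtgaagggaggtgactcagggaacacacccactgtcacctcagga
Ifit3 and Ifit1 lie on the plus strand, each with 2 matches, and Isg15 with 3 and Oas3 with 1 lie on the minus strand. On either strand, this core stood in the 250 bases before the start of 15 of 35 list members with a promoter in the table (42.9%), against 3.37% of the 10817 measured genes and 3.46% of all 27025 genes in the table. Members with the core ranged widely in difference, from Ifit3 at 1.68 to Bst2 and Ifitm2 at or below 0. The difference was 0.65 for Ifit1 and 0.50 for Oas3, both named after their values were seen.

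**Figure D3:**
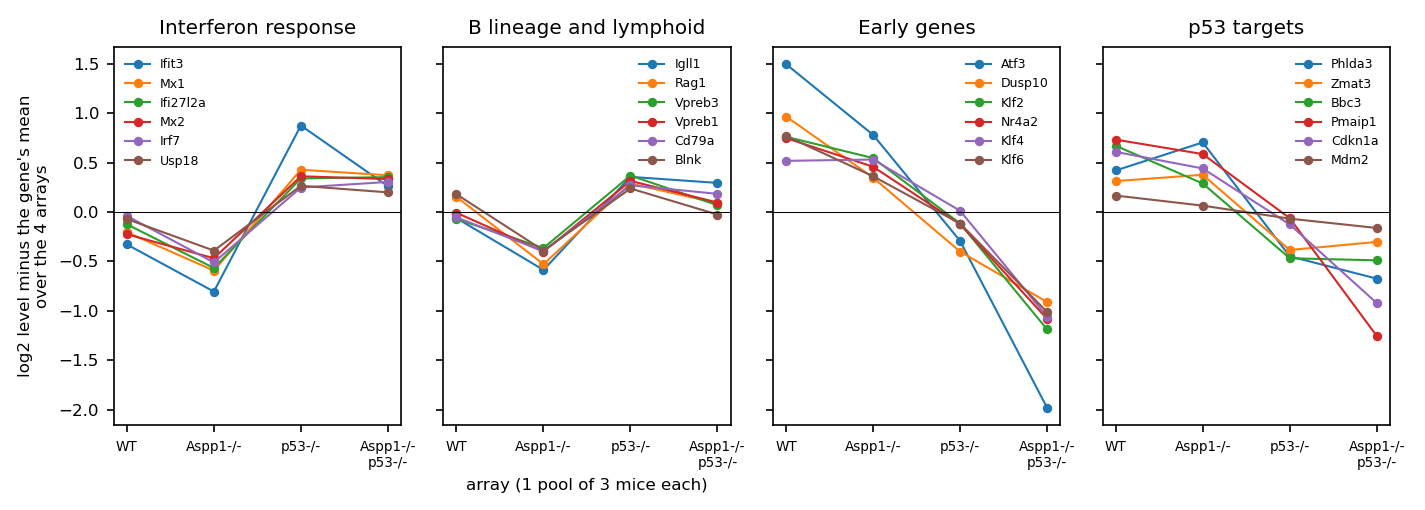
Each line joins the levels of 1 gene on the 4 arrays, as log2 level less the mean of the gene over the arrays, in panels for interferon, lymphoid, early and p53 target genes chosen after their values were seen. In the interferon and lymphoid panels the Aspp1-/- array is the low point and the p53-/- array is high. In the early gene panel the WT and Aspp1-/- arrays are high and the Aspp1-/-p53-/- array is the lowest, as Atf3 shows with signals from 16562 to 1390.

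Early response genes were lower on the p53-/- array as a group. These genes are transcribed within minutes of a stimulus such as growth factors, stress or handling of cells, and many encode AP-1, EGR or Krüppel-like transcription factors. Of 44 listed genes 42 were measured, and 37 lay below 0 (54.5% of all RefSeq genes) with a median of −0.30. Of these, 8 were lower by 0.5 or more (1.32%), 1 was 2-fold lower (0.161%) and none was higher by 0.5.

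Atf3, a stress-induced repressor of the ATF family, was the 2-fold member. Its probe (chr1:192994547-192994606, mm9) read 16562 on the WT array, 10504 on Aspp1-/-, 4890 on p53-/- and 1390 on Aspp1-/-p53-/-, a difference of −1.07. The 4 arrays stood in that order without a tie. All 11 genes of the FOS, JUN and ATF group lay below 0, with a median of −0.35. In this group Fosl2 was at −0.62 with a second probe at 0.90, so that the mean of its probes turned to 0.14. Fosl1 was at −0.60, Maff at −0.54 and Fosb at −0.44.

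The Krüppel-like factors Klf2, Klf4 and Klf6 were at −0.66, −0.52 and −0.48. Klf2, which restrains proliferation and guides lymphocyte traffic, read 111203 on the WT array, 99751 on Aspp1-/-, 61743 on p53-/- and 26902 on Aspp1-/-p53-/-. Its WT and Aspp1-/- values were near each other and both others were lower. Of the EGR and NR4A genes, all 4 measured lay below 0, from Nr4a2, an orphan nuclear receptor, at −0.58 to Egr1 at −0.27. Egr3 and Nr4a3 were well above background on the WT and Aspp1-/- arrays only. Dusp10, a phosphatase of the kinases JNK and p38, was at −0.75 with 327, 222, 129 and 83, and 5 of the 6 dual-specificity phosphatases lay below 0.

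Against the WT array the median of the early genes was −0.38 on the p53-/- array, −0.13 on the Aspp1-/- array and −0.84 on the Aspp1-/-p53-/- array. Both arrays without p53, which also share Mx1-Cre and slide row 2, had the lower medians. The part of p53 loss, Mx1-Cre, slide row, sorting or handling in the result was not tested. A pair of promoters is shown because they hold known elements of induction in early genes, in RefSeq sequence (GRCm38.p6, plus strand). Capitals mark 2 adjoining matches to the serum response element core, or CArG box, in Dusp5 and the cAMP response element TGACGTCA in Maff.
Dusp5, chr19:53529035-53529114: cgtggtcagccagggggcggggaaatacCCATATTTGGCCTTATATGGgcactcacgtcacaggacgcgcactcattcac
Maff, chr15:79347440-79347519: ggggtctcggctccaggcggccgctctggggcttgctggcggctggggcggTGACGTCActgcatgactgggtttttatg
Dusp5 differed by −0.46. A CArG box stood in 3 of 34 early genes with a promoter in the table (8.82%), against 1.45% of measured genes, and TGACGTCA also in 3 (8.82%), against 2.98%. The AP-1 letters TGACTCA stood in 1 of 34, against 4.00% of measured genes. The CArG box was searched after the values were seen.

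In neighbouring stress pathways single members were lower. Of the NF-kB subunits and feedback genes 11 of 16 lay below 0 (54.5% of all RefSeq genes) with a median of −0.08, and the lowest were Cd83, an activation marker, at −0.59 and Tnfaip3, the A20 deubiquitinase that ends NF-kB signalling, at −0.58. Of the integrated stress response genes 11 of 13 lay below 0 with a median of −0.17. Chac1, which breaks down glutathione, led them with 94 on the WT array, 99 on Aspp1-/-, 39 on p53-/- and 39 on Aspp1-/-p53-/-, a difference of −1.31 that was −0.60 under normexp. Ddit3, which encodes CHOP, was at −0.45, while the pseudokinase Trib3 was at 0.30. Heat shock genes lay below 0 in 9 of 11, with a median of −0.16.

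Listed genes of early B cell development were mostly higher on the p53-/- array, led by the surrogate light chain. Immunoglobulin transcripts, which are outside this list, had medians of −0.08 for 43 heavy, −0.36 for 37 kappa and 0.15 for 3 lambda chain transcripts. Of the heavy chain transcripts 14 were 2-fold lower (0.518% of all genes and transcripts) and 5 were 2-fold higher (0.856%). Among kappa chain transcripts, 14 were 2-fold lower and 4 were 2-fold higher. The immunoglobulin transcripts thus did not follow the listed genes as a group. Of 17 listed B lineage genes 14 were measured and 12 lay above 0 (45.5% of all RefSeq genes), with a median of 0.51, the highest of the lists. Of these 7 were higher by 0.5 or more (2.27% of all RefSeq genes) and none was 2-fold higher. Igll1, a part of the surrogate light chain of pre-B cells, read 291 on the WT array, 211 on Aspp1-/-, 397 on p53-/- and 348 on Aspp1-/-p53-/-, a difference of 0.94. Vpreb1 and Vpreb3, also of the pre-B receptor, were at 0.72 and 0.73. Their signals were 2213, 1755, 2823 and 2222 for Vpreb1, and 1193, 1014, 1651 and 1227 for Vpreb3.

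Cd79a, a signalling chain of the B cell receptor, was at 0.67 and the adaptor Blnk at 0.63. For all 5 genes the Aspp1-/- array was the lowest of the 4 and the p53-/- array the highest. Pax5 and Blk were well above background on no array, and Ms4a1, which encodes CD20 of mature B cells, on the Aspp1-/- array only. The summed level of the measured B lineage genes, in units of the 75th percentile signal, was 36.5 on the WT array, 32.2 on Aspp1-/-, 39.4 on p53-/- and 35.6 on Aspp1-/-p53-/-. In RNA from a sorted pool, fewer cells of a type and less RNA per cell cannot be told apart.

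Lymphoid-primed progenitor genes lay above 0 in 12 of 18 (45.5% of all RefSeq genes), with a median of 0.11 that turned to −0.03 under median scaling. Rag1 and Rag2, the recombinase of antigen receptor genes, were at 0.82 and 0.62, Rag1 with 148, 96, 166 and 133 on the WT, Aspp1-/-, p53-/- and Aspp1-/-p53-/- arrays. The interleukin-7 receptor gene Il7r was at 0.44 and Ccr9, a thymus-homing receptor, at 0.41. Mef2c, a factor of lymphoid priming, was at −0.41. The T lineage genes split evenly, 4 above and 4 below 0, from Cd3e at 0.40 to the costimulator Cd28 at −0.62. Of the natural killer cell genes 5 of 7 lay below 0 (54.5% of all RefSeq genes), the lowest at −0.15.

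Myeloid genes were also higher in part. Of monocyte, macrophage and dendritic cell genes 13 of 17 lay above 0 (45.5% of all RefSeq genes) with a median of 0.18. Of the 17, 6 were higher by 0.5 or more (2.27%) and 2 lower by 0.5 or more (1.32%). F13a1, a transglutaminase of monocytes, read 1431 on the WT array, 989 on Aspp1-/-, 1723 on p53-/- and 1567 on Aspp1-/-p53-/-, a difference of 0.83. Ccr2, the receptor that brings monocytes out of the marrow, was at 0.80 and Ly86, a partner of Toll-like receptor signalling, at 0.79. In each of these the Aspp1-/- array stood lowest. The summed level of this list went the other way, from 264 on the Aspp1-/- array to 253 on the p53-/- array, so median and sum differed in direction. Cd14 at −0.51 and Klf4 at −0.52 opposed the median, and Cd14 was named after its value was seen.

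Genes of primary granules lay above 0 in 10 of 12 (45.5% of all RefSeq genes), with a median of 0.21 and Elane, neutrophil elastase, highest at 0.43. Their summed level was 749 on the Aspp1-/- array and 800 on the p53-/- array. Secondary and tertiary granule genes had a median of 0.04 that turned to −0.10 under median scaling, with 12 of 18 above 0, Retnlg at −0.69 and Mmp9 at −0.68. Erythroid, mast cell and megakaryocyte lists had medians of 0.07, 0.06 and −0.01. The erythroid and mast cell medians both turned to −0.08 under median scaling, and the megakaryocyte median turned to 0.02 under quantile normalization. The stromal and endothelial list had a median of 0.04 that turned to −0.10 under median scaling, with Sparc at −0.65 and Cxcl12 at −0.59.

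**Figure D4:**
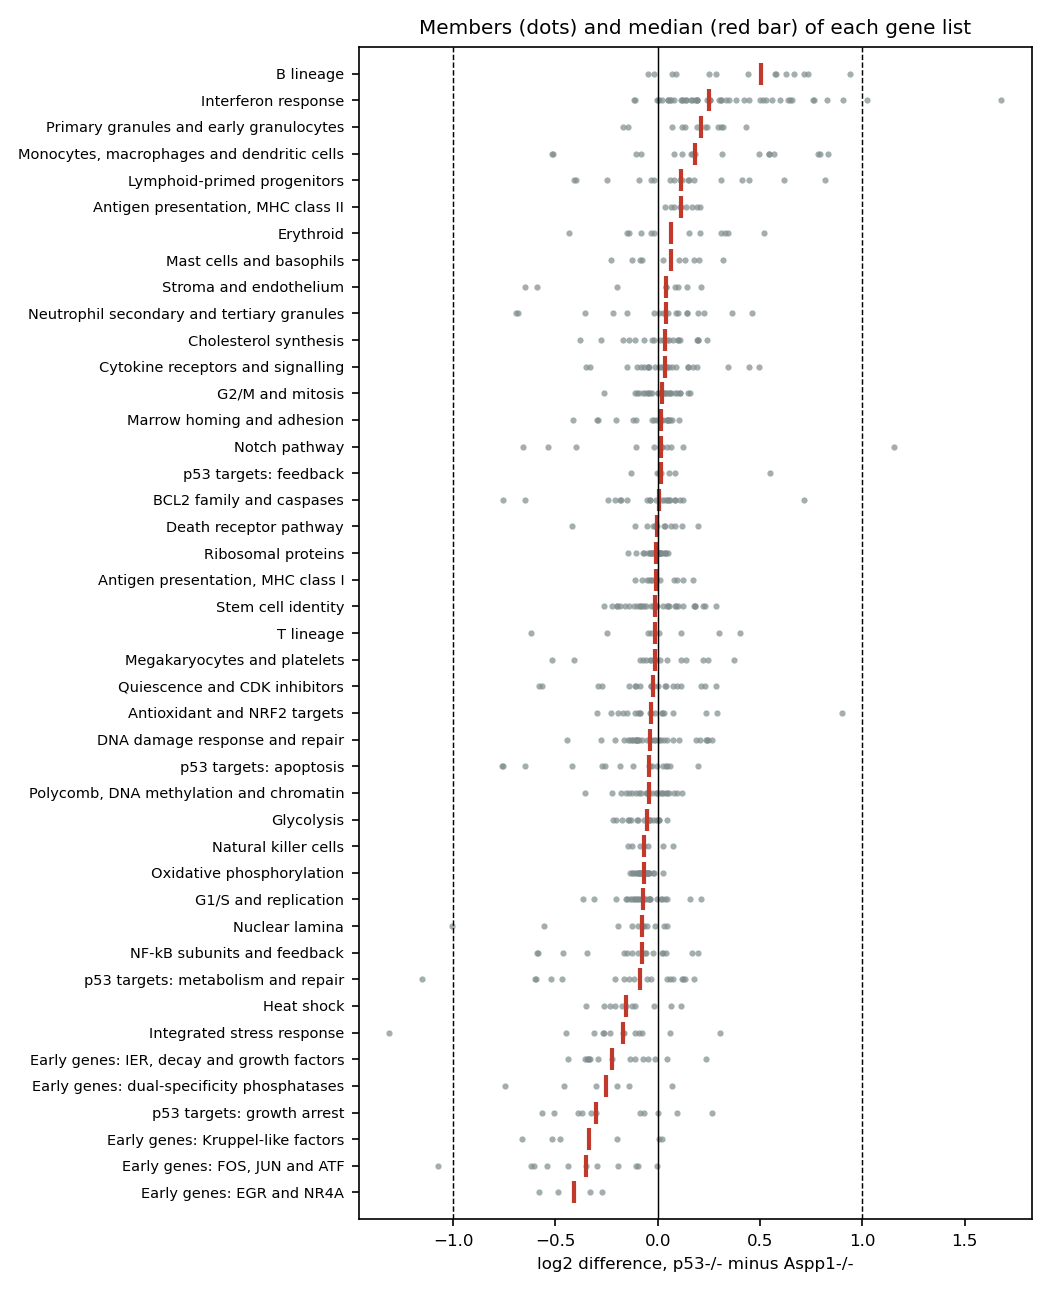
Each row is a gene list, each grey dot the log2 difference, p53-/- minus Aspp1-/-, of 1 measured member, and the red bar the median, with dashed lines at the 2-fold rule. B lineage at 0.51 and interferon response at 0.25 stand at the top, the early gene groups and p53 arrest targets at the bottom, and most lists lie near 0.

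Stem cell and cell cycle genes differed little. Of the stem cell identity genes 34 of 35 were measured, 14 lay above 0 (45.5% of all RefSeq genes), and the median was −0.01. They ranged from Vldlr at −0.26 to Ly6a at 0.28. Replication and G1/S genes had 22 of 28 below 0 (54.5% of all RefSeq genes) and a median of −0.07. The lowest of these were cyclin D1, Ccnd1, at −0.37 and Tyms, thymidylate synthase, at −0.31. Genes of G2/M and mitosis had a median of 0.02, which turned to −0.12 under median scaling. Oxidative phosphorylation genes lay below 0 in 24 of 25 (54.5% of all RefSeq genes), with a median of −0.07 and the lowest value, −0.14, at Sdhb, a subunit of complex II. DNA damage response genes had a median of −0.04, with 22 of 34 below 0 (54.5% of all RefSeq genes). Ribosomal protein genes had a median of −0.01 and ranged from −0.14 to 0.05.

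Single members stood apart from lists that otherwise lay near 0. Lmna, which encodes lamins A and C, read 5376 on the WT array, 3220 on Aspp1-/-, 1570 on p53-/- and 587 on Aspp1-/-p53-/-, a difference of −1.01 that was −0.98 under quantile normalization and −0.92 under normexp. Lmnb1, which encodes lamin B1, was at −0.56, with the Aspp1-/- array alone high at 15495 against 10322 on the p53-/- array. The nuclear lamina list as a whole had a median of −0.08. Numb, an inhibitor of Notch, was at 1.16, with 124, 112, 245 and 101, and was at 0.90 under normexp. The Notch ligand Jag2 was at −0.66 and the Notch target Hey1 at −0.54. Nqo1, a quinone reductase and NRF2 target, was at 0.90, with 98, 98, 179 and 96 on the WT, Aspp1-/-, p53-/- and Aspp1-/-p53-/- arrays. Bmf, a BH3-only protein, was at 0.72 while Bbc3 and Pmaip1, which also encode BH3-only proteins, were lower. The measured BCL2 family and caspase genes split evenly, with 11 above 0 and 11 below (45.5% and 54.5% of all RefSeq genes). Numb and Nqo1 were thus high on the p53-/- array alone.

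Beyond the lists, the genes with the largest differences were mostly dim and high on 1 array. Tnxb, which encodes the matrix protein tenascin X, read 17 on the WT array, 35 on Aspp1-/-, 430 on p53-/- and 17 on Aspp1-/-p53-/-, a difference of 3.65, and was not well above background on the WT and Aspp1-/-p53-/- arrays. Eml5, a microtubule-associated protein, read 46, 46, 369 and 39, a difference of 3.03. Cd38, an ectoenzyme of NAD, read 65, 52, 252 and 51, a difference of 2.32. In these genes the Aspp1-/-p53-/- array, which also lacks p53, was as low as the arrays with p53.

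The chemokine Xcl1 at 3.1, Otog at 2.68 and Rergl at 2.44 had the same shape. Further probes of the same gene were near 0 for Pilra (3.24, second probes up to 0.12), Zfp423 (2.33, second probe 0.17) and Clip4 (1.94, second probe −0.25), and for 4930402H24Rik (3.13, second probe −0.20). When only probes detected on every array were kept, which dropped their brightest probe, Pilra was at 0.12, Zfp423 at 0.17 and Carmil3 at 0.55 in place of 2.37. The calls of Snrpn and Clip4 ended under normexp, at 0.89 and 0.90.

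On the lower side, Trp53 left out, the 3 largest differences were high on the Aspp1-/- array alone. Nxpe2 read 48 on the WT array, 303 on Aspp1-/-, 54 on p53-/- and 51 on Aspp1-/-p53-/-, a difference of −2.46. Pfn2, which encodes the actin-binding protein profilin 2, read 36, 194, 36 and 23, a difference of −2.38, and the adenylyl cyclase Adcy3 read 59, 281, 63 and 60, a difference of −2.13. Paqr6 at −1.68, Mid1 at −1.44 and Rhoj at −1.38 were likewise highest on the Aspp1-/- array. A second Mid1 probe gave −1.19, whereas a second probe of Sh3rf1, at −1.5, gave −0.01. Mlf1, a gene named for its fusion in myeloid leukaemia, differed in shape, with 365, 307, 140 and 89 and a difference of −1.11. Under normexp Mlf1 was at −0.78, Mid1 at −0.87, Rhoj at −0.94, Gm3852 at −0.68, 5830444B04Rik at −0.82, 4930417O13Rik at −0.56 and Gm5640 at −0.92, so that none of these kept its 2-fold call. Rgcc, a cell cycle regulator named after its value was seen, was the brightest 2-fold gene at −1.02, with 36103, 29539, 14239 and 5373.

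Genes seen on 1 array of the pair have only a bound. Of RefSeq genes, 397 were well above background on the p53-/- array and not the Aspp1-/- array, and 630 on the Aspp1-/- array only. The lowest signal called well above background was 9.75 on the Aspp1-/- array and 23.4 on the p53-/- array, so the bounds of both sides cannot be compared in number. Sat2, a neighbour of Trp53 chosen after its value was seen, was not well above background on the WT and Aspp1-/- arrays at 17 and 16, and read 915 on p53-/- and 789 on Aspp1-/-p53-/-. It was at least 57.8-fold higher on the p53-/- array, as set against the higher of the dim probe's signal and the lowest signal well above background.

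The surroundings of the targeted genes were read from the probe positions of the files (mm9). Within 5 Mb of the Trp53 probe 135 RefSeq genes were measured on both arrays and none was 2-fold different (0.709% of all RefSeq genes), with a median of −0.01. Sat2, seen on the p53-/- array of the pair only and described above, is not among them. Of 22 measured transcripts without a RefSeq gene name there, 1 was 2-fold higher (0.856% of all genes and transcripts) and none 2-fold lower (0.518%). The probe of this transcript lies 15.7 kb from that of Trp53. It was at 1.05 from dim signals, with 37 on the WT array, 43 on Aspp1-/-, 88 on p53-/- and 85 on Aspp1-/-p53-/-. The sodium pump subunit Atp1b2, whose probe lies 9.05 kb from that of Trp53, was at −0.79, with 257 on the WT array, 171 on Aspp1-/-, 97 on p53-/- and 107 on Aspp1-/-p53-/-. Wrap53, which lies next to Trp53, was at 0.004. Atp1b2 and Wrap53 were named after their values were seen.

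Within 5 Mb of the Ppp1r13b probe 72 RefSeq genes were measured, with a median of −0.01, and 3 were 2-fold higher (0.549% of all RefSeq genes) and none 2-fold lower. Tedc1, a centriolar protein, read 4863, 2830, 6699 and 3805 on the WT, Aspp1-/-, p53-/- and Aspp1-/-p53-/- arrays, a difference of 1.27 with a second probe at 3.49. The zinc finger gene Zfp386 read 4554, 3047, 7193 and 3748, also 1.27. For both, the arrays without Aspp1 were below the arrays with it. Tmem179 was at 1.15 from dim signals. These 3 genes were named after their values were seen.

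Between the Tedc1 and Zfp386 probes, chr12:114403580-117298954 in mm9, lay 61 measured transcripts with no RefSeq gene name, 29 of which the files describe as immunoglobulin. Of these 61, 31 were 2-fold lower on the p53-/- array (0.518% of all 19514 genes and transcripts), 5 were 2-fold higher (0.856%), 43 lay below 0 (54.1% of all) and the median was −1.22. Their median signal was 362 on the WT array, 644 on Aspp1-/-, 222 on p53-/- and 447 on Aspp1-/-p53-/-. Both arrays without Aspp1 had the higher median. The transcript described as the heavy constant mu chain, ENSMUST00000103426, read 7229, 9103, 5488 and 5031, a difference of −0.70. Many of these transcripts are near-identical variable segments, whose probes may share signal, and the stretch was chosen after its values were seen. Over all 43 transcripts that the files describe as heavy chain, 14 were 2-fold lower, 5 were 2-fold higher and the median was −0.08. Kappa chain transcripts, which lie on another chromosome, had a median of −0.36, with 14 of 37 being 2-fold lower and 4 being 2-fold higher.

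**Figure D5:**
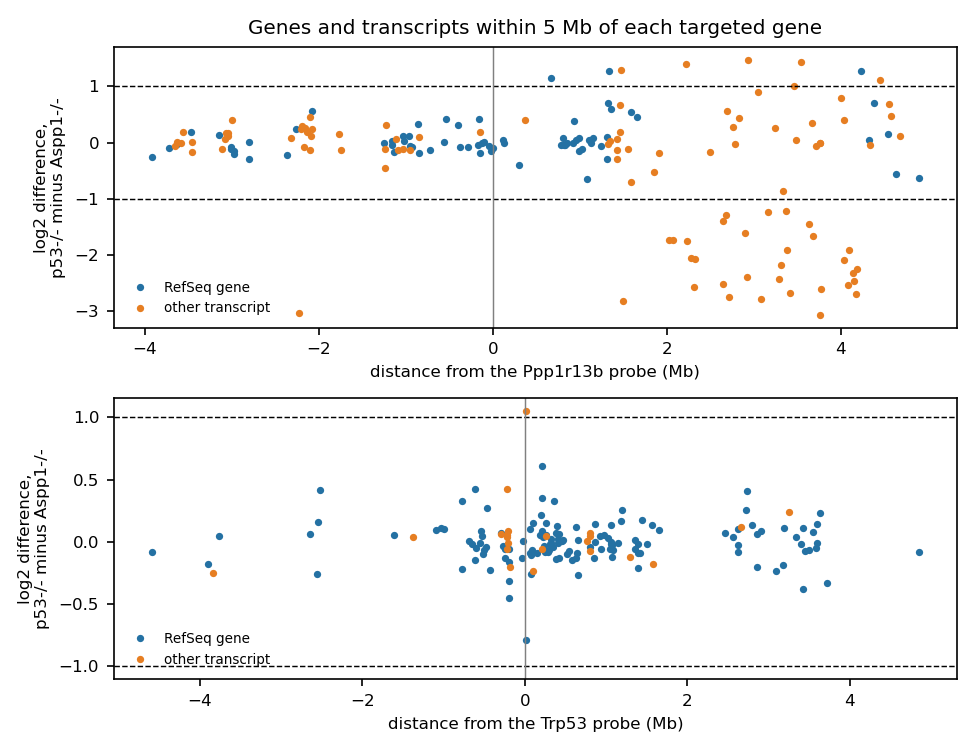
Each dot is a RefSeq gene (blue) or another transcript (orange) by its distance in Mb from the Ppp1r13b probe (top) or the Trp53 probe (bottom), and the y axis gives the log2 difference, p53-/- minus Aspp1-/-, with dashed lines at the 2-fold rule. Near Ppp1r13b 32 of 102 other transcripts are 2-fold lower (0.518% of all genes and transcripts) and 6 are 2-fold higher (0.856%). There 3 RefSeq genes are 2-fold higher (0.549% of all RefSeq genes). Near Trp53 1 of 22 other transcripts is 2-fold higher, at 1.05, and no other transcript is 2-fold lower. No RefSeq gene measured on both arrays is past the rule near Trp53, while Sat2, seen on 1 array of the pair, is not drawn.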

How the data were processed

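LSK RNA of 4 genotypes was hybridised to 4 one-colour Agilent arrays (design 028005), 1 per genotype. Spot intensity, already background-subtracted, was deposited by the authors, who used Feature Extraction version 10.7.3.1 by the file headers, on a linear scale with a surrogate for dim spots. Flags and raw mean and background intensity were used as other values, as deposited. The authors' value table holds log2 values centred per probe; over 27307 probes its p53-/- minus Aspp1-/- differences correlated at r = 1 with the scanner files, with an array constant of unknown origin. Its columns had medians of −0.0661 (WT), −0.0422 (Aspp1-/-), 0.0267 (p53-/-) and 0.0478 (Aspp1-/-p53-/-). Scale and direction of this table follow from that match alone.

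Control spots (3671 an array) and outlier spots (120 to 172) were left out, spots of a probe averaged (spot standard deviation 0.0538 to 0.0555), and each array set to its 75th percentile over probes. Probes were named through RefSeq: 26760 by accession, 3818 by symbol, 639 by synonym and 24458 by none. A gene was its brightest probe well above background on both arrays. Named genes were the targets and their families, the 15 largest differences each way, all p53 targets and up to 5 members per list, with any past 2-fold. The members, the 44 lists and the rules of size were chosen with earlier results of these data known. Differences were recomputed under 7 alternatives with numpy 2.4.6, pandas 2.3.3 and limma 3.58.1. Promoters were RefSeq's (GRCm38.p6), of which the 250 bases before the start were searched. With 1 array a side there is no test. Some genes are not reported here.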

Additional observations from a re-analysis of the deposited data

How the results depend on the processing

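Scaling on the median, quantile normalization, requiring all 4 arrays, the mean of probes and the authors' value table left the counts of 2-fold genes within 1.5 times of the 75 higher and 22 lower. Normexp background correction with an offset of 50 gave 29 higher and 9 lower, and counting genes seen on 1 array as bounds gave 429 and 102. Among named genes, Fosl2 turned to 0.14 with the mean of its probes and Clip4 to −0.25 with the probes seen on all 4 arrays. Median scaling moved the median of all RefSeq genes to −0.159, and list medians were therefore compared relative to that of all RefSeq genes, a choice made after the values were seen. Without this, the sign of 13 of 46 list medians turned under median scaling, 8 under quantile normalization, 3 with the mean of probes and 1 under normexp. With it, 8 lists turned in at least 1 setting, with a size of at most 0.0278, and these have no settled direction. In the comparison of settings, lists under 0.05 and genes under 0.25 in size were counted as having no direction, limits set after the values were seen. Without a minimum size, the sign of 30 of 267 named genes turned under median scaling. The cause of these changes was not tested. Dim signal limits most 2-fold calls. No paired analysis was possible because each group has 1 array, so that the groups share only 1 replicate number.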

Other observations

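Gene groups outside the main programmes differed little. Genes of MHC class II lay above 0 in 9 of 9 (45.5% of all RefSeq genes), led by H2-Ob at 0.21 and H2-Aa at 0.19. Their median of 0.11 turned to −0.03 under median scaling, and genes of class I had a median of −0.01. Glycolysis genes lay below 0 in 15 of 18 (54.5% of all RefSeq genes). Their median was −0.05 and the lowest value, −0.22, was at the triosephosphate isomerase gene Tpi1. Cholesterol synthesis genes had a median of 0.04 that turned to −0.11 under median scaling, with the regulator Srebf2 at −0.38. Polycomb, DNA methylation and chromatin genes had a median of −0.04, with the histone methyltransferase gene Kmt2a lowest at −0.36. Among cytokine receptors and signalling genes, Csf1r was at 0.50 and the feedback inhibitor Socs3 at −0.35. Their median of 0.03 turned to −0.11 under median scaling. Of 20 quiescence genes 11 lay below 0, near the 54.5% of all RefSeq genes. The list ranged from −0.58 to 0.28, the value of Foxo3, a factor that maintains quiescence. In it 2 genes were lower by 0.5 or more (1.32% of all RefSeq genes) and none was higher by 0.5 (2.27%). The lists of death receptor, marrow homing, BCL2 family and NRF2 genes had medians of −0.01, 0.02, 0.01 and −0.03. Under median scaling the marrow homing and BCL2 family medians turned to −0.13 and −0.14. The death receptor median turned to 0.02 under quantile normalization.

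Of 5842 measured transcripts without a RefSeq gene, 92 were 2-fold higher on the p53-/- array and 79 were 2-fold lower. Over all 19514 genes and transcripts the shares were 0.856% higher and 0.518% lower. The chromosome 12 stretch between Tedc1 and Zfp386 held 31 of the lower transcripts and 5 of the higher.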
